A study of Mus musculus with 130 samples.

Results

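The 41 genes described here encode the UDP-glycosyltransferases (22 Ugt genes) and the cytosolic sulfotransferases (19 Sult genes) of the mouse. They were taken by symbol, Ugt or Sult followed by a digit, from tables of 35274 genes (diet study) and 35711 genes (strain panel). Of 49 symbols that matched in each table, 6 pseudogenes and the 2 genes Sult3a1 and Sult3a2 were left out. Liver RNA of male mice was sequenced in 130 libraries, each from 20 mg of tissue of the large lobe. The diet study held 5 groups of 3 C57BL/6J mice. Of these, 1 group was fed chow, and the other 4 groups had 50 ppm iron (the sufficient diet), 500 ppm (elevated), 2% carbonyl iron (20000 ppm) or the same 2% with cellulose as fibre. Mice of the panel, of 114 strains, had 4 weeks of chow followed by 6 weeks on 2% iron, so that no mouse of the panel was measured without iron loading. Recombinant inbred strains made up 83 of them (BXD 56, AXB/BXA 20, BXH 4, CXB 3), and 31 were other inbred strains. Each strain is 1 mouse, except 129X1/SvJ with 2 mice, so strain and individual cannot be told apart.

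Conjugation makes lipophilic compounds water-soluble so that they can leave in bile or urine. Ugt enzymes, in the endoplasmic reticulum, mostly transfer glucuronic acid from UDP-glucuronic acid: Ugt1a1 acts on bilirubin, Ugt1a6 isoforms on simple phenols, and Ugt2b enzymes on steroids, bile acids and many drugs. The Ugt3a enzymes use other sugar nucleotides, and Ugt8a makes galactosylceramide for myelin. Sult enzymes, in the cytosol, transfer sulfate from PAPS: Sult1 enzymes act on phenols, catecholamines, thyroid hormone and, for Sult1e1, oestrogens, and Sult2a enzymes act on hydroxysteroids and bile acids. In mouse liver several Sult2a genes and Sult1e1 are known for low expression in healthy adult males.

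The genes lie in a few clusters, which matters for reading their values. On the GENCODE M21 annotation of GRCm38, the 9 Ugt1a genes lie on chromosome 1 at 88055388 to 88220002, and 50.3% to 60.6% of the exonic bases of each are shared with other Ugt1a genes. Reads from those exons cannot be assigned to 1 gene with certainty. The 7 Ugt2b genes, the 3 Ugt2a genes and the Sult genes Sult1b1, Sult1d1 and Sult1e1 lie on chromosome 5 at 86889767 to 87591594. The 8 Sult2a genes lie on chromosome 7 at 13623967 to 14494230 and are close copies of each other, so counts of single Sult2a genes are uncertain. Ugt3a1 and Ugt3a2 are neighbours on chromosome 15, at 9276888 to 9315032 and 9335550 to 9370955.

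The bases just upstream of 3 neighbouring Ugt2b genes show how alike these copies are. The 250 bases before the RefSeq start sites of Ugt2b5, Ugt2b38 and Ugt2b37 are given because these genes share long identical stretches. All are on the minus strand of GRCm38.p6 and read 5′ to 3′, at chr5:87140341-87140590, chr5:87424204-87424453 and chr5:87254789-87255038. Capitals mark AGGTCA, the core motif of many nuclear receptors.
Ugt2b5: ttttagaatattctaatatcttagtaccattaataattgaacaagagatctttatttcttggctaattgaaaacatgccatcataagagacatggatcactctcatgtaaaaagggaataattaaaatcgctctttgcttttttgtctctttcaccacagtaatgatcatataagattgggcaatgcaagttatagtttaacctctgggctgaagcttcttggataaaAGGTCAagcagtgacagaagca
Ugt2b38: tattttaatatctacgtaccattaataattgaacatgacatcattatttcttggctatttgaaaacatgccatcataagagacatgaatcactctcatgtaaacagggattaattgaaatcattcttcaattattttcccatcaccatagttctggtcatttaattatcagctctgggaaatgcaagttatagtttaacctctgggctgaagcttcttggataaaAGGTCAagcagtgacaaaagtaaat
Ugt2b37: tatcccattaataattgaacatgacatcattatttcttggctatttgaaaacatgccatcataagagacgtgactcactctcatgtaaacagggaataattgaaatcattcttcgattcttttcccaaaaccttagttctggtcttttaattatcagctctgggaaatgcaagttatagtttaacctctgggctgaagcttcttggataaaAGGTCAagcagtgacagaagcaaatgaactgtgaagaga
Ugt2b5 shared a run of 62 identical bases with Ugt2b38 and of 68 with Ugt2b37, and both runs hold AGGTCA. Its longest run was 24 bases with Ugt2b36 and 9 bases with each of Ugt2b1, Ugt2b34 and Ugt2b35. The start sites of Ugt2b5 and Ugt2b37 in RefSeq lie 22 and 16 bases from the annotated ends of the genes, and that of Ugt2b38 on it.

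RefSeq upstream sequences (GRCm38.p6) were matched for 35 of the 41 genes. Searched on both strands, AGGTCA was found in 13.8% of the 27025 upstream windows of all genes. Of the genes called lower on 2% iron than on 50 ppm (below), 7 had a window: AGGTCA was in 3 of them (Sult1b1, Ugt2b38 and Ugt2b5), and in 5 of the 15 windows of the other tested genes. The motifs TTCNNNGAA of STAT factors, GCGTG of the aryl hydrocarbon receptor and TGACNNNGC of the antioxidant response element were in none of the 7 windows and in 7.18%, 28.2% and 10.1% of all windows. In the same order, they were in 1, 2 and 0 of the 15 windows of the other tested genes, so they were scarce there too. A match or its absence describes these letters only.

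Livers of the diet study held high levels of a minority of these genes. Levels are compared between genes in TPM, which are per length. Over the 15 libraries, 17 genes had a mean of at least 10 TPM and 18 a mean under 1 TPM. Ugt2b5 led with 274 TPM, followed by the bile acid sulfotransferase Sult2a8 (247 TPM), Ugt2b36 (219.9 TPM), the bilirubin enzyme Ugt1a1 (212 TPM) and the phenol sulfotransferase Sult1a1 (209 TPM). Ugt2b38 and Ugt2b37, which share the upstream stretch with Ugt2b5, averaged 3.08 and 0.563 TPM. No count was assigned to Ugt2a1, Sult1c1 or Sult6b2 in any of the 15 libraries. The count filter of the tests was passed by 25 genes. The other 16, each with a mean under 1.1 TPM, are described and not tested: Sult1c1, Sult1e1, Sult2a1 to Sult2a6, Sult2b1, Sult4a1, Sult6b1, Sult6b2, Ugt1a8, Ugt2a1, Ugt2a2 and Ugt8a.

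Summed over the 22 Ugt genes, the level was 1837 ± 31.4 TPM (SD, n = 3) on chow, 1460.2 ± 103 TPM on 50 ppm and 1390.0 ± 194 TPM on 500 ppm. It was 1189 ± 50.4 TPM on 2% iron and 1173 ± 47.8 TPM on 2% iron with cellulose. Both 2% groups lay below every library of chow and 50 ppm. They overlapped with 500 ppm, whose replicate 2 held 1175 TPM, below 1 library of each 2% group (1246 and 1228 TPM). For the 19 Sult genes the sum was 754.4 ± 23.3 TPM on chow, 658.9 ± 39.02 TPM on 50 ppm and 581.7 ± 85.8 TPM on 500 ppm. It was 422 ± 53.2 TPM on 2% iron and 389 ± 21.5 TPM with cellulose, and these groups did not overlap with the other 3. Sult2a8 alone averaged 376.8 TPM on 50 ppm, 115.8 TPM on 2% iron and 43.98 TPM with cellulose. From 50 ppm to either 2% diet it fell by more than the sum did. The sum therefore does not show a fall of the other Sult genes between these diets.

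On 2% iron, 8 of the 25 tested genes were lower than on 50 ppm and none was higher. They were Ugt2b38, Sult2a8, Ugt3a1, Ugt2b1, Sult1b1, Ugt3a2, Ugt2b5 and Ugt2a3, with log2 changes from -1.88 to -0.41. Of all 13560 genes tested, 15.7% were called at an adjusted p under 0.05 and 7.17% were called lower. The median log2 change was -0.30 over the 25 genes and 0.01 over all genes. By subfamily, both Ugt3a genes, 3 of 7 Ugt2b genes, the 1 tested Ugt2a gene, 1 of 4 tested Sult1 genes and 1 of 2 tested Sult2a genes fell, and none of the 8 tested Ugt1a genes or Sult5a1 was called. Fewer hepatocytes and less RNA per hepatocyte cannot be told apart in bulk tissue.

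**Figure D1:**
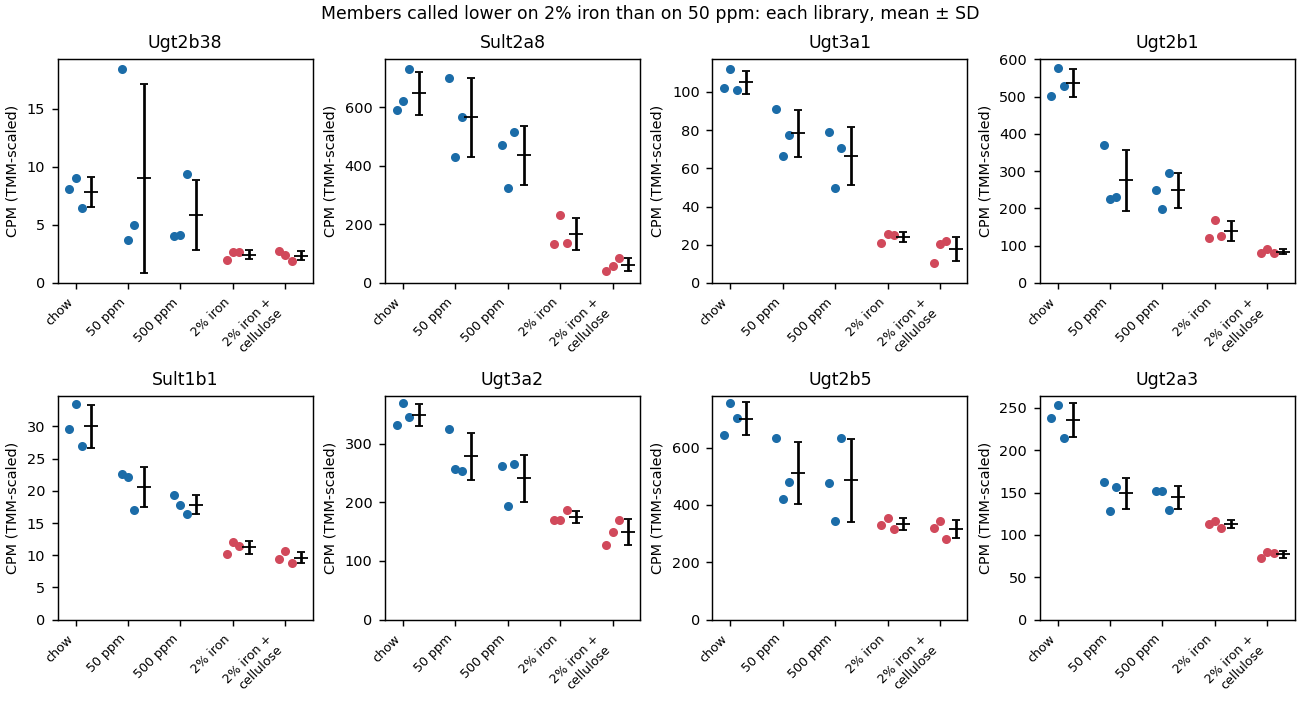
Expression in CPM scaled with TMM factors (y axis, from 0) of the 8 genes called lower on 2% iron than on 50 ppm, by diet (x axis). Points are single libraries (blue for chow, 50 ppm and 500 ppm, red for both 2% diets), and bars are mean ± SD of 3 libraries. The 3 libraries on 2% iron lie below the 3 on 50 ppm in each panel, but the genes were picked by this same comparison, which favours such a gap.

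Sult2a8, the main Sult2a gene of these livers, was at 134, 231 and 136 CPM in the 3 libraries on 2% iron and at 699, 430.5 and 564.65 CPM in those on 50 ppm. The groups did not overlap, and the log2 change was -1.76 (SE 0.28, adjusted p 0.00154, edgeR quasi-likelihood test), a 3.38-fold difference. On 2% iron with cellulose it was lower again, at 42.3, 59.2 and 85.0 CPM, with a log2 change of -3.18 against 50 ppm (SE 0.30, adjusted p 2.03e-05). The step from the 2% diet to the 2% diet with cellulose was -1.42 (SE 0.28) with an adjusted p of 0.0646 and was not called.

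Ugt3a1 was at 21.05, 25.9 and 24.9 CPM on 2% iron and at 91.0, 66.5 and 77.6 CPM on 50 ppm. The log2 change was -1.71 (SE 0.23, adjusted p 0.000646). Its neighbour Ugt3a2 fell less, from 325, 256.4 and 254 CPM to 169, 169 and 187 CPM (log2 change -0.67, SE 0.14, adjusted p 0.00680). Neither gene's groups overlapped. These were the only tested genes of the family that uses sugar nucleotides other than UDP-glucuronic acid.

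Of the Ugt2b genes, Ugt2b1 was at 121, 170.1 and 127 CPM on 2% iron and at 369, 227 and 230.4 CPM on 50 ppm. The log2 change was -0.98 (SE 0.19, adjusted p 0.00503). Ugt2b5 was at 328, 355 and 315.7 CPM against 631.8, 422 and 479.8 CPM (log2 change -0.62, SE 0.19, adjusted p 0.0411). Ugt2b38 was at 1.99, 2.67 and 2.65 CPM against 18.4, 3.67 and 4.97 CPM (log2 change -1.88, SE 0.53, adjusted p 0.0277). In all 3 genes, replicate 1 of the 50 ppm group was the highest library of its group. Without it the log2 change of Ugt2b38 was -0.83 and that of Ugt2b5 -0.44, and neither was called. Neither was called without any 1 of the 2% libraries either, and Ugt2b5 also not without replicate 3 of 50 ppm or replicate 3 of chow.

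Ugt2a3, which glucuronidates bile acids, was at 113, 117 and 108 CPM on 2% iron and at 163, 128 and 156.1 CPM on 50 ppm. The log2 change was -0.41 (SE 0.10, adjusted p 0.0184). Sult1b1, which sulfates phenols and thyroid hormone, was at 10.1, 12.1 and 11.4 CPM against 22.6, 22.1 and 17.1 CPM (log2 change -0.88, SE 0.13, adjusted p 0.00101). The call of Ugt2a3 was lost without replicate 1 or 3 of 50 ppm or replicate 3 of 2% iron, and that of Sult1b1 was not lost with any 1 library left out. In all, 5 genes were called without replicate 1 of 50 ppm, and 5 without replicate 3 of 2% iron.

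The chromosome 5 cluster was called in part, and with 3 mice a group a gene not called is not shown to be unchanged. Of its 13 genes, 10 were tested and 5 were called lower on 2% iron. Between and beside them, Ugt2b34 was at 344 ± 3.54 CPM on 2% iron and 391.7 ± 33.9 CPM on 50 ppm (adjusted p 0.362), and Ugt2b36 at 291 ± 17.6 and 333.8 ± 38.04 CPM (adjusted p 0.332). Ugt2b35 was at 162 ± 16.4 and 129 ± 14.9 CPM (adjusted p 0.231) and Sult1d1, a catecholamine sulfotransferase, at 156.4 ± 15.4 and 101 ± 28.2 CPM (adjusted p 0.142), both higher in all 3 libraries on 2% iron. Ugt2b37 was low, at 1.16 ± 1.11 and 1.53 ± 1.37 CPM, and was not called. Within the Ugt1a locus, Ugt1a1 was at 363 ± 34.5 CPM against 437 ± 36.9 CPM (log2 change -0.27, adjusted p 0.144). Ugt1a9 was at 75.6 ± 17.4 and 73.6 ± 5.28 CPM (adjusted p 0.956), and Ugt1a6a and Ugt1a6b had log2 changes of 0.22 and 0.18, with adjusted p-values of 0.196 and 0.286.

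**Figure D2:**
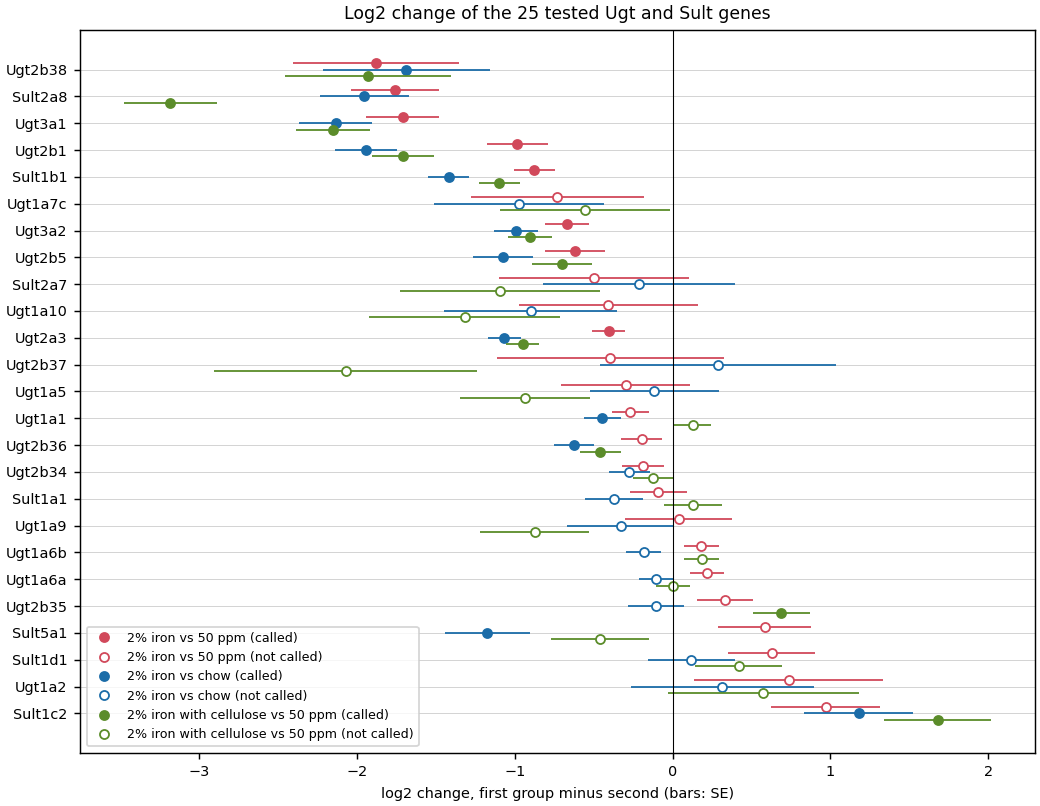
Log2 change (x axis, bars are SE) of the 25 tested genes (y axis, in order of the change between 2% iron and 50 ppm) in 3 comparisons, with filled points for genes called at an adjusted p under 0.05 and open points for the others. The filled points of Sult1c2 and Ugt2b35 lie above 0 and all other filled points below 0. Both comparisons with 50 ppm share those 3 libraries, and the first and second share the 2% libraries.

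At 500 ppm, none of the 25 genes was called against 50 ppm, and none of all 13560 genes (0%). No gene of the 25 reached an unadjusted p under 0.05 with edgeR, and DESeq2 and limma also called none. Sult2a8 was at 471, 323 and 515 CPM on 500 ppm and overlapped with the 50 ppm group, with a log2 change of -0.37 (SE 0.27). Between 2% iron and 500 ppm, 5 genes were lower and none was higher, where 11.3% of all genes were called and 4.75% were called lower. They were Ugt3a1 (-1.47), Sult2a8 (-1.39), Ugt2b1 (-0.83), Sult1b1 (-0.67) and Ugt2a3 (-0.36), on the log2 scale, with adjusted p-values of 0.00151, 0.00637, 0.0136, 0.00497 and 0.0395. The call of Ugt2a3 was lost in 9 of 22 other fits, among them those without either of replicates 1 and 2 of the 500 ppm group. That of Ugt2b1 was lost in 3, without replicate 1 or 3 of the 2% group or replicate 3 of the 500 ppm group. Without replicate 1 or without replicate 3 of the 2% group, 3 of the 5 genes were called.

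Against chow, 11 genes were lower on 2% iron and 1 was higher. Of all genes 22.8% were called, 10.9% lower and 11.9% higher. The 8 genes called against 50 ppm were all among the 11, with larger changes than against 50 ppm for 7 of them: Ugt3a1 -2.13, Sult2a8 -1.95, Ugt2b1 -1.94, Sult1b1 -1.42, Ugt2b5 -1.07, Ugt2a3 -1.07 and Ugt3a2 -0.99. Ugt2b38 was at -1.69, and its call was lost without any 1 of the 2% libraries or without replicate 1 or 2 of chow. The other 3 were Sult5a1 (11.4 ± 2.69 CPM on chow and 5.07 ± 0.987 CPM on 2% iron, log2 change -1.17, adjusted p 0.00690), Ugt2b36 (449 ± 63.2 and 291 ± 17.6 CPM, -0.62, adjusted p 0.00380) and Ugt1a1 (494 ± 37.9 and 363 ± 34.5 CPM, -0.44, adjusted p 0.0151). Sult1c2 was the gene that rose, from 2.44, 4.66 and 4.29 CPM to 8.87, 8.98 and 8.11 CPM (log2 change 1.18, SE 0.35, adjusted p 0.0255). Its call was lost without any 1 of the 2% libraries or without replicate 1 of chow, and that of Ugt1a1 without replicate 2 of the 2% group or replicate 1 or 2 of chow.

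Chow is not a purified diet, so it is set against 50 ppm as a diet and not as an iron level. Between these groups 2 genes were called, both higher on chow, where 0.391% of all genes were called and 0.265% were called higher. Ugt2a3 was at 238, 254 and 214 CPM on chow, with a log2 change of 0.66 (SE 0.10, adjusted p 0.0196). Sult5a1, whose substrates are little known, was at 13.9, 8.57 and 11.9 CPM on chow and at 3.59, 3.87 and 2.73 CPM on 50 ppm. The log2 change was 1.76 (SE 0.28, adjusted p 0.0201). Neither pair of groups overlapped. Neither gene was called without replicate 1 of chow, replicate 2 of 50 ppm or replicate 3 of 50 ppm, and without replicate 2 of chow Sult5a1 was the 1 gene called. Ugt2b1 was at 535.9 ± 37.2 CPM on chow and 275.5 ± 81.4 CPM on 50 ppm, with an adjusted p of 0.0518.

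With cellulose, 9 genes were lower and 2 were higher on 2% iron than on 50 ppm. Of all genes, 29.7% were called, 14.3% lower and 15.4% higher. The 9 were the 8 that fell without cellulose and Ugt2b36 (-0.46, adjusted p 0.0164). The 2 that rose were Sult1c2, at 13.9, 17.8 and 10.8 CPM against 3.39, 2.90 and 6.80 CPM (log2 change 1.68, SE 0.34, adjusted p 0.00275), and Ugt2b35, at 197, 252 and 174 CPM against 145, 117 and 124 CPM (0.69, SE 0.18, adjusted p 0.0108). The call of Ugt2b35 was lost without replicate 2 of the cellulose group, and those of Ugt2b36, Ugt2b38 and Ugt2b5 without replicate 1 of 50 ppm. No gene was called between the 2% diets with and without cellulose, where 0.0811% of all genes were called. There, 7 of the 25 genes had an unadjusted p under 0.05 with edgeR and DESeq2 called 4. With edgeR, 3 were called without replicate 3 of the cellulose group, and 1 without replicate 2 of 500 ppm or without replicate 2 of 50 ppm. The closest by edgeR were Ugt2a3 (77.2 ± 3.96 CPM with cellulose and 112.5 ± 4.70 CPM without, log2 change -0.54, adjusted p 0.0587) and Sult2a8.

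The diets with 2% iron also differed in markers of other cells and in sex-biased genes. Of 7 markers of Kupffer cells and macrophages, all 7 were called higher on 2% iron than on 50 ppm, with a summed level of 477 to 504 CPM against 113 to 193.5 CPM. The 5 hepatocyte markers summed to 83515 to 89625 CPM against 69724 to 79555 CPM, with 2 of 5 called lower and none higher. Of 4 endothelial markers 1 was called higher (Stab2, log2 change 0.80), with a summed level of 228 to 250.4 CPM against 160.0 to 201 CPM. Of the 3 markers of gut epithelium 1 was tested and was called lower (Fabp2, -1.16), with a summed level of 23.5 to 29.6 CPM against 55.7 to 66.8 CPM. None was called of the tested markers of cholangiocytes (4 of 6 tested), stellate cells (5 of 5), T and B cells (2 of 4) and exocrine pancreas (1 of 8). Of 15 genes with male-biased expression in mouse liver, 14 were called lower, and their summed level was 1385 to 2093 CPM on 2% iron and 10863 to 34081 CPM on 50 ppm. Of 14 female-biased genes, 2 were called higher and none lower. Of all 13560 genes, 15.7% were called in this comparison and 7.17% were called lower. The 4 Y-linked genes were not called. The part of these in the falls of the Ugt and Sult genes was not tested.

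One library of the diet study stood apart for the female-type sulfotransferases. Sult2a1 to Sult2a6 together had 376 counts in replicate 2 of the 500 ppm group, which is 18.2 CPM, and 0 to 2 counts in each of the other 14 libraries, where 3 counts are worth 0.212 to 0.288 CPM. Sult2a2 was at 8.28 CPM there and Sult2a5 at 4.21 CPM. Sult1e1, the oestrogen sulfotransferase, was at 3.58 CPM there and at 0 to 0.966 CPM elsewhere. Its Y-linked sum of 174 CPM lay within the 163 to 191 CPM of the other libraries. The mean log2 CPM of the 14 female-biased genes was 4.13 in that library, against 0.189 and 0.884 in its group mates. With that library and replicate 1 of the 50 ppm group both left out, an alternative added after the data were seen, 5 genes were called lower on 2% iron than on 50 ppm.

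Genes that serve conjugation were followed as lists, here and in the next paragraph. Of all genes, 15.7% were called on 2% iron against 50 ppm, 7.17% lower. With cellulose against 50 ppm 29.7% were called, 14.3% lower and 15.4% higher. For 2% iron the share was 22.8% against chow (10.9% lower, 11.9% higher) and 11.3% against 500 ppm (4.75% lower). Of 12 genes for the supply of UDP-glucuronic acid, PAPS and sulfate, 1 was called lower on 2% iron than on 50 ppm (the PAPS transporter Slc35b2, log2 change -0.32) and none higher. With cellulose, Ugdh, which makes UDP-glucuronic acid, rose from 91.2 to 219.7 CPM (1.27, adjusted p 0.00107) and Ugp2, which makes UDP-glucose, from 300.0 to 493 CPM (0.72, adjusted p 0.00523), while Bpnt1 fell by 0.30. Against chow, 4 of the 12 were lower on 2% iron and none higher, with the PAPS synthase Papss2 at -0.76 (adjusted p 0.0147). Of 5 tested deconjugating enzymes, 1 was called lower on 2% iron than on 50 ppm, the arylsulfatase Arsa (-0.95, adjusted p 0.00935), and none higher.

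Of 11 transporters of conjugates and bile acids, 2 were called lower on 2% iron than on 50 ppm: Slco1b2 (680 and 1221 CPM, log2 change -0.84, adjusted p 0.00653) and Slco1a1 (203 and 556 CPM, -1.45, adjusted p 0.00506), which is also on the male-biased list. With cellulose 5 were lower and 3 higher, the latter the basolateral exporters Abcc3 (0.59) and Abcc4 (1.93) and the drug pump Abcb1a (2.47). Of 14 transcription factors known for the control of conjugation genes, 2 were lower on 2% iron, the xenobiotic receptor Nr1i3 (139 and 268 CPM, -0.95, adjusted p 0.0105) and Foxa1 (13.9 and 23.04 CPM, -0.73, adjusted p 0.0473). With cellulose Nr1i2 was higher than on 50 ppm, at 89.96 against 62.9 CPM (0.52, adjusted p 0.00307). Of 12 target genes that report on xenobiotic receptors, 3 were higher and none lower on 2% iron than on 50 ppm: Nqo1, Cyp2b10 and Gstm1, with log2 changes of 1.46, 5.63 and 0.56. Against 500 ppm 1 was higher and 2 were lower. Against chow none was higher and 1 was lower (Cyp3a11, 1531 and 6407 CPM, -2.065), and Cyp2b10 was at 48.6 CPM on chow and 32.5 CPM on 2% iron.

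Across the 114 strains on the 2% diet, single genes differed widely. The highest medians were those of Sult1a1 (278 TPM), Ugt2b36 (234 TPM), Ugt1a1 (207.1 TPM), Ugt2b5 (203 TPM) and Ugt2b34 (134 TPM). Sult1a1 ranged from 134 TPM in BXH14/TyJ to 538 TPM in BALB/cJ and Ugt2b34 from 58.05 TPM in BXH2/TyJ to 255.6 TPM in BXD34/TyJ. At the other end Sult2a8 ranged from 0.635 TPM in NZB/BlNJ to 331.03 TPM in BXH14/TyJ, with a median of 96.5 TPM. Ugt1a9 ranged from 1.75 to 438 TPM. Of 25 genes tested in both studies, 23 had a larger SD of log2 CPM between strains than within the diet groups, as had 94.0% of all genes. The median ratio of both SDs was 2.69 over the 25 and 1.66 over all genes. The 2 exceptions were Ugt1a7c (0.893) and Ugt1a2 (0.952).

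**Figure D3:**
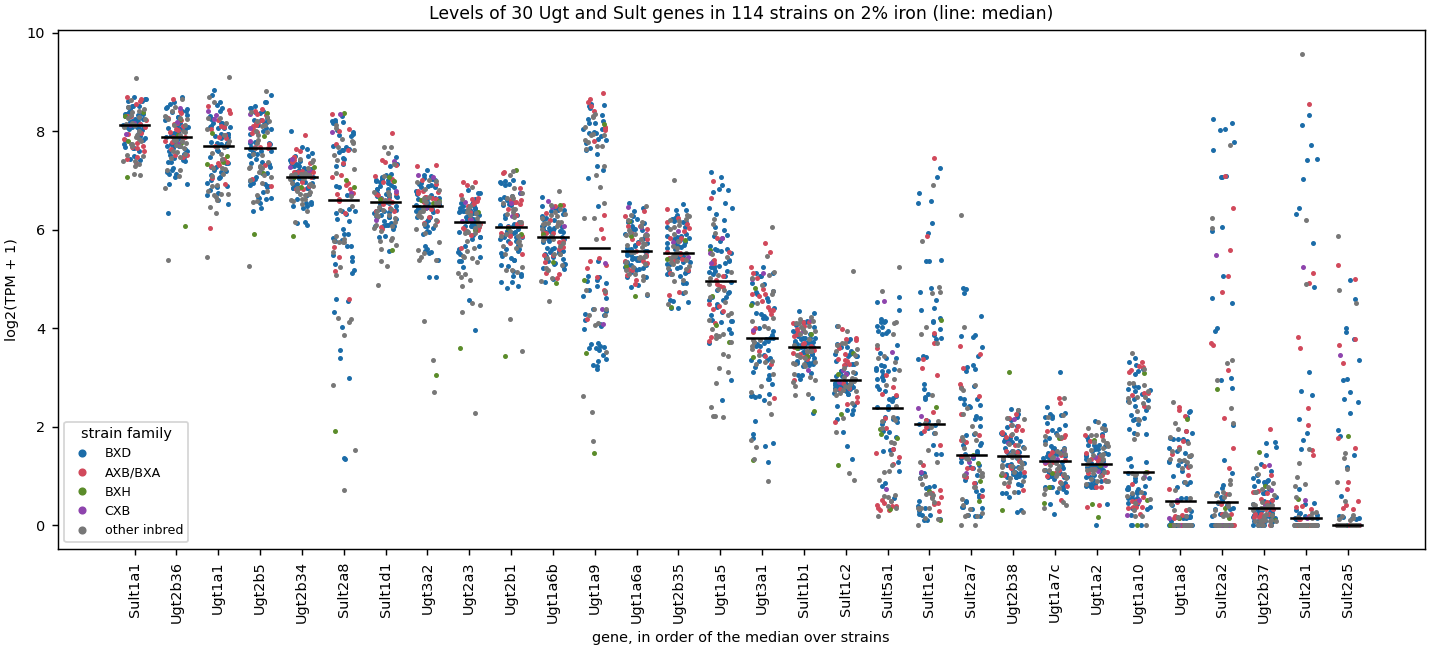
Level as log2(TPM + 1) (y axis) of the 30 genes tested in the strain families (x axis, in order of the median), with 1 point for each of 114 strains in the colour of its family and a line at the median. Ugt1a9 splits into an upper and a lower cloud, and Sult1e1, Sult2a1, Sult2a2 and Sult2a5 are near 0 in many strains and high in a few.

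Ugt1a9, which glucuronidates bulky phenols, was split in each family at the widest gap in its sorted log2 CPM, away from both ends. Any gene has a widest gap, so the empty space between both sides, called clusters here, is set by the split. The gap was 2.58-fold in the BXD, 2.84-fold in the AXB/BXA and 1.91-fold in the other inbred strains. For scale, in the BXD strains it was 3.51-fold for Sult2a1 and 1.24-fold for Ugt1a1. In the BXD strains, 31 lay between 8.04 and 40.5 TPM and 25 between 88.8 and 374 TPM. In the AXB/BXA strains, 11 lay between 17.2 and 77.8 TPM and 9 between 224 and 438 TPM. In the other inbred strains the widest gap was narrower, with 12 strains between 2.29 and 26.2 TPM and 19 between 55.5 and 327.4 TPM, so that no single gap divided all 114 strains. The parent C57BL/6J was at 19.9 TPM, and the other parents, DBA/2J and A/J, at 246 and 314 TPM, so that each pair of parents fell on both sides of the gap of its family. C3H/HeJ and BALB/cByJ were at 19.9 and 16.2 TPM. Ugt1a9 made up 4.88% of the summed Ugt1a level in C57BL/6J, 57.3% in DBA/2J and 51.7% in A/J, and from 0.316% (BALB/cJ) to 64.1% (AXB12/PgnJ) across strains.

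Ugt1a1, in the same locus, was at 242 TPM in C57BL/6J, 87.4 TPM in DBA/2J and 205 TPM in A/J. The summed Ugt1a level was 407, 429 and 608 TPM in these strains. Because the strains were split at the gaps of Ugt1a9, its relation with Ugt1a1 is given within clusters only, as a description. Pearson's r was -0.17 in the lower and 0.07 in the upper BXD strains (n = 31 and 25), and 0.10 and -0.30 in the AXB/BXA strains (n = 11 and 9). In the other inbred strains it was -0.14 and -0.19 (n = 12 and 19). These values leave out the step between the clusters and do not show that both genes are unrelated: in the plot of both genes, most points of the right cloud lie lower on the Ugt1a1 axis than most points of the left cloud. Groups made from the Ugt1a9 level itself were not tested against each other. Gaps were not particular to Ugt1a9. Split in the same way, Ugt1a10 had a gap of 1.61-fold in the BXD and 3.96-fold in the AXB/BXA strains. Ugt1a10 lay at 0 to 1.58 TPM in 31 BXD strains and at 2.59 to 9.51 TPM in the other 25. In the AXB/BXA strains, 11 lay at 0.160 to 1.11 TPM and 9 at 4.32 to 8.99 TPM. Over the 3 pairs of Ugt1a8, Ugt1a9 and Ugt1a10, Pearson's r of log2 CPM was 0.87 to 0.88 across the 114 strains. Ugt1a8 and Ugt1a10 had maxima of 4.66 and 10.4 TPM, both in SWR/J. The Ugt1a genes share more than 50.0% of their exonic bases, and how far the split of shared reads enters these values was not tested.

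**Figure D4:**
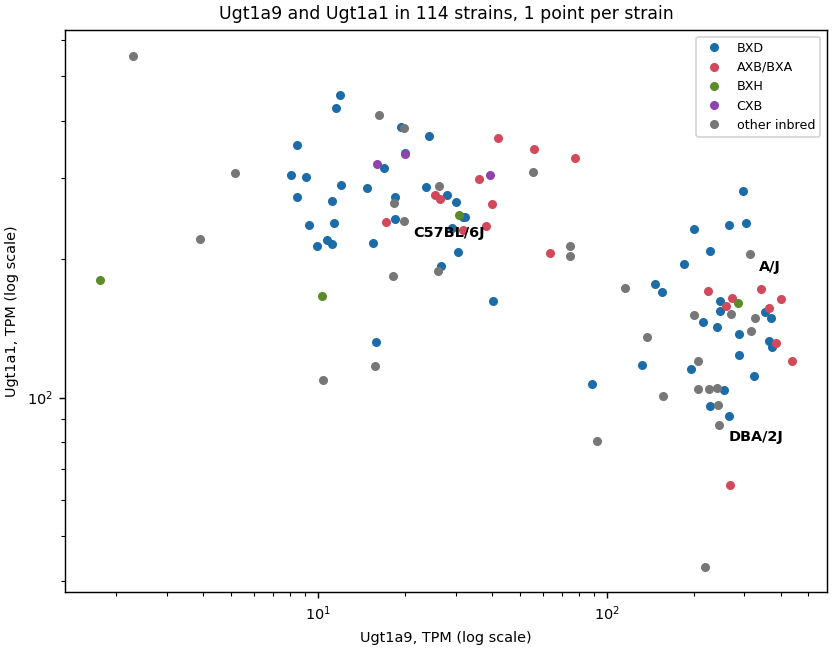
Ugt1a9 (x axis) and Ugt1a1 (y axis), both in TPM on log scales, with 1 point per strain coloured by family and 3 parents named. C57BL/6J (19.9 and 242 TPM) lies in the left cloud and DBA/2J (246 and 87.4 TPM) and A/J (314 and 205 TPM) in the right cloud.

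The female-type Sult2a genes were near 0 in most strains and high in some. Summed over Sult2a1 to Sult2a6, 66 of 114 strains lay under 1 TPM, 34 over 10 TPM and 16 over 100 TPM, with a median of 0.504 TPM. Those over 100 TPM were 10 BXD, 2 AXB/BXA, 1 CXB and 3 other inbred strains. The highest was BALB/cJ with 1114 TPM, of which Sult2a1 was 762 TPM, followed by BXA12/PgnJ (581 TPM), BXD38/TyJ (554 TPM), BXD68/RwwJ (547 TPM) and BXD74/RwwJ (520.6 TPM). The parents C57BL/6J, DBA/2J and A/J were at 0.154, 0 and 14.9 TPM, while BALB/cByJ was at 180.5 TPM. The library labelled BXD65/RwwJ, at 294 TPM, had a Y-linked sum of 3.94 CPM against 118 to 328 CPM in the other strains, although all mice are labelled male.

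Sult1e1 was high in some of the same strains. It was at 174 TPM in BXA12/PgnJ, 134 TPM in BXD74/RwwJ, 119 TPM in BALB/cJ and 106 TPM in BXD38/TyJ, but at 152 TPM in BXD22/TyJ, which is not among the 16 above, and at 1.89 TPM in BALB/cByJ. Its median was 3.12 TPM. Sult2a8, in the same gene cluster, was low in some strains with a high sum and high in others: it was at 32.9 TPM in BALB/cJ, 23.2 TPM in BXA12/PgnJ and 1.52 TPM in BXD74/RwwJ, but at 160 TPM in BXD68/RwwJ and 218 TPM in BALB/cByJ. Sult2a7 had its maximum of 78.1 TPM in C57BLKS/J, with the next strain, BXD33/TyJ, at 27.2 TPM.

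**Figure D5:**
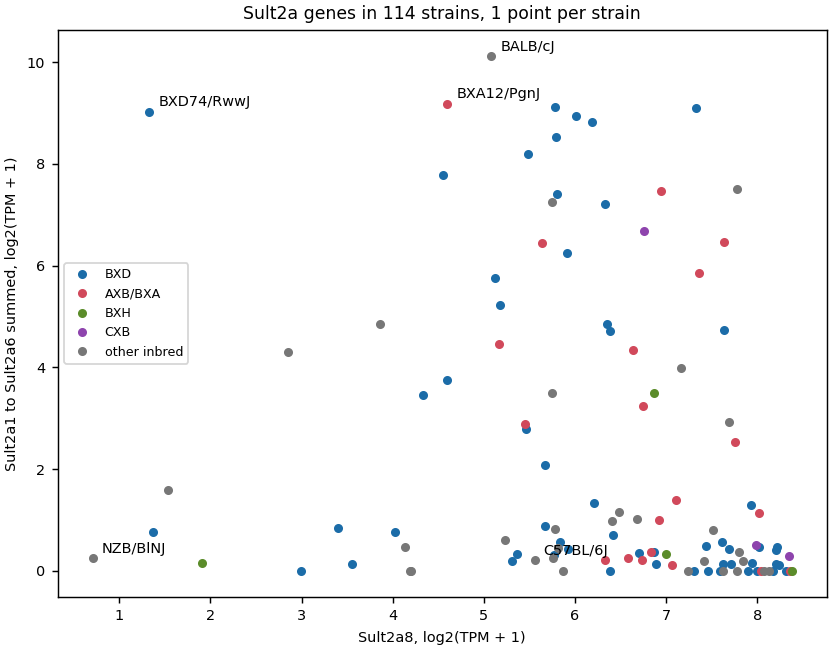
Sult2a8 (x axis) against the sum of Sult2a1 to Sult2a6 (y axis), both as log2(TPM + 1), with 1 point per strain coloured by family. Many strains lie at the bottom at low and at high levels of Sult2a8, and the 5 strains with the highest sums range from BXD74/RwwJ (1.52 TPM of Sult2a8) to BXD68/RwwJ (160 TPM).

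The 8 genes that fell on 2% iron in the diet study varied together across strains. Over the 28 pairs of these genes the median Pearson's r of log2 CPM was 0.74 (0.40 to 0.89, 114 strains). It was 0.73 within the BXD strains, 0.59 within the AXB/BXA strains and 0.74 within the other inbred strains. Over the 231 pairs of the 22 other genes tested in the strain families the median was 0.11. Some of the 22 were near 0 in many strains, with Sult2a5 at 0 TPM in 64 strains and Sult2a1 in 50. Among the 8, Ugt2b38 was low too (median 1.65 TPM). The part of low counts in the 2 medians was not tested. All these r are descriptions, since all genes of a strain share 1 library and the members were grouped by the diet study. BXH2/TyJ and NZB/BlNJ were among the 10 lowest strains for all 8 genes, and BXA26/PgnJ among the 10 highest for 7. Ugt3a2 was at 7.32 TPM in BXH2/TyJ and 9.19 TPM in NZB/BlNJ, with the lowest value, 5.49 TPM, in AKR/J and a median of 88.0 TPM. Ugt2a3 was at 3.82 TPM in NZB/BlNJ against a median of 70.7 TPM.

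Each of these 8 genes was higher in strains with more expression of male-biased liver genes. Against the mean log2 CPM of the 15 male-biased genes, which ranged from 0.885 to 8.25 with a median of 3.07, Pearson's r was 0.72 for Sult2a8 (rho 0.83) and 0.72 for Ugt2b5 (rho 0.77). It was 0.70 for Ugt2b38, 0.68 for Ugt2b1, 0.60 for Ugt3a1, 0.47 for Ugt3a2, 0.44 for Ugt2a3 and 0.30 for Sult1b1. For Sult1e1 r was -0.57 (rho -0.60). The permutation p was 1e-05, the smallest that 100000 resamples can give, for all of these except Sult1b1 (p 0.0013, adjusted p 0.0014), and the Benjamini-Hochberg adjusted p over 18 relations was 1.1e-05. Without BXD14/TyJ and BXH14/TyJ, the 2 strains farthest from the median, r stayed between 0.31 and 0.72 for the 8 genes and was -0.55 for Sult1e1. By r, all 9 relations held at an adjusted p under 0.05 within the BXD strains and within the other inbred strains, and 6 of 9 within the 20 AXB/BXA strains, all with the same sign as in the whole panel. Within the BXD strains the relation of Sult1b1 held by r only (r 0.29, rho 0.22 with an adjusted permutation p of 0.1), and r was 0.22 without the 2 farthest strains. The strains share parents and are not fully independent. The relations were computed for these 9 genes only. The share of all genes with such a relation is not known, so they are not shown to be particular to these genes.

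The other 9 relations were with Lcn2, an acute-phase gene that was chosen after its values were seen. They too were computed for the same 9 genes only, with no share over all genes to set them against. All 8 genes had a negative r with Lcn2, from -0.66 for Ugt2b1 to -0.45 for Ugt3a2 (permutation p 1e-05 each), and Sult1e1 had an r of 0.25 (p 0.0069, adjusted p 0.0069). Without BXD48/RwwJ and NZB/BlNJ, the farthest strains, r was -0.63 for Ugt2b1, -0.42 for Ugt3a2 and 0.23 for Sult1e1. Lcn2 was at 861 CPM in BXH2/TyJ and 1567 CPM in NZB/BlNJ, against a median of 53.4 CPM, but at 132 CPM in BXD74/RwwJ, which was among the 10 lowest strains for 6 of the 8 genes. By r, all 9 relations with Lcn2 held at an adjusted p under 0.05 within the BXD strains, 8 within the other inbred strains (not Sult1e1, r 0.19, permutation p 0.3) and 7 within the AXB/BXA strains. The 2 that did not hold in the AXB/BXA strains were Ugt3a1 (r -0.21, adjusted permutation p 0.43) and Sult1e1 (r -0.16, adjusted permutation p 0.54). By rho, Ugt3a2, Ugt2b1 and Sult2a8 in the AXB/BXA strains (adjusted permutation p 0.073, 0.079 and 0.073) and Ugt2b38 in the other inbred strains (0.079) did not hold either.

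Between strain families, 2 of 30 tested genes differed between the BXD and AXB/BXA strains, where 11.6% of 13794 genes were called. Sult5a1 was higher in the BXD strains, at 5.77 ± 3.44 CPM (SD, n = 56) against 2.75 ± 2.41 CPM (n = 20), a log2 change of 1.08 (SE 0.25, adjusted p 0.00169). Over the alternatives the change ranged from 1.01 to 2.07, the latter with limma on log2(TPM + 0.1). Ugt3a1 was lower, at 23.3 ± 16.1 CPM against 38.8 ± 16.3 CPM (log2 change -0.73, SE 0.24, adjusted p 0.0338). Both families overlapped in both genes. In TPM, Sult5a1 was at 3.39 in C57BL/6J, 13.8 in DBA/2J and 0.524 in A/J, and Ugt3a1 at 8.64, 32.7 and 34.4. Sult5a1 was lowest in BALB/cByJ (0.143 TPM) and highest in LG/J (36.9 TPM), and Ugt3a1 was lowest in BALB/cJ (0.872 TPM) and highest in I/LnJ (65.4 TPM).

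The only strain with 2 mice gives a view of the spread within a strain. In 129X1/SvJ, Ugt2b5 was at 299 and 373 TPM, Sult2a8 at 147 and 216.8 TPM, Ugt1a9 at 179 and 234 TPM, Ugt1a1 at 154 and 86.0 TPM, Sult5a1 at 4.94 and 12.97 TPM and Sult1e1 at 19.5 and 7.90 TPM. The differences for Sult5a1 and Sult1e1 were each over 2-fold between mice of 1 strain, while both mice lay in the upper cluster of Ugt1a9. In C57BL/6J, the 1 panel mouse was at 46.04 TPM for Sult2a8, against 116 ± 52.2 TPM in the 3 mice on 2% iron of the diet study. The values come from separately processed tables and are set side by side only.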

How the data were processed

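Expected counts per gene and library, not normalized, were deposited by the authors for both studies, and part of the values are not whole. The authors also deposited TPM values for the same genes. Per the submitters' processing notes, kallisto 0.46 and mm10 were used. Symbols and coordinates came from GENCODE M21 (GRCm38), counted from 1. Library totals ran from 10.4 M to 20.4 M counts (diet study) and from 9.41 M to 20.6 M (panel). RNA passed RINe 8 and went into a stranded mRNA kit, per the labels.

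The counts were rounded and tested with edgeR 4.0.16 (quasi-likelihood, TMM, filterByExpr, R 4.3.3), adjusted by Benjamini-Hochberg over all genes. Genes with an adjusted p under 0.05 were called, and all tests were two-sided. The 5 diets were fitted together, and the BXD and AXB/BXA strains in a fit of their own. A gene that passes the filter through 1 high group had to differ, so counts are over tested genes. CPM are TMM-scaled, and log2 CPM used a prior count of 2. With 3 mice against 3, an exact permutation test cannot go below p = 0.1, so none was run. Counts with known changes were simulated from the mean level of each gene, the library sizes and the dispersion that edgeR fitted. On these, edgeR recovered 70.7% of 2-fold and 89.9% of 4-fold changes for 2% iron against 50 ppm (13388 genes). For the strain families it recovered 95.9% and 99.0% (13685 genes). Libraries that stand apart were not simulated, so recovery in the real data can be lower.

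Correlations used 100000 permutations (numpy 2.4.6, scipy 1.17.1), with the 2 mice of 129X1/SvJ averaged. The members, gene lists and comparisons were chosen with earlier results of these data known. Members called in a comparison or with a mean of at least 10 TPM in the diet study were named with values, those with the largest changes first, and up to 4 called genes of each other list by the size of the change. The female-type Sult2a genes, Sult1e1, Sult2a7, Ugt1a8, Ugt1a10 and Ugt2b37 were named after their values were seen. Alternatives were RLE factors, no count filter, a minimum of 10 counts per library, fits of the compared diets alone, DESeq2 1.42.0, limma 3.58.1 on log2(TPM + 1) and log2(TPM + 0.1), and each library left out in turn. For the families, substrains were summed and BXD65/RwwJ was left out. The labels give no batch, date or replicate number.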

Additional observations from a re-analysis of the deposited data

Results flagged for a closer look

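Among the 4 BXH strains, 1 strain lay far from the other 3 for 5 of 30 genes, where chance gives such a gap in about 1 of 20 groups. BXH2/TyJ was low for Ugt3a2 (7.32 TPM, the others 93.0 to 95.7 TPM), Ugt2b36 (66.5 TPM, the others 218 to 304 TPM) and Ugt2a3 (11.03 TPM, the others 63.0 to 81.6 TPM). BXH10/TyJ was high for Sult2a5 (2.52 TPM) and Sult2a1 (0.442 TPM), both listed at 0 in the other 3 strains, where any value above 0 stands apart. Each strain is 1 mouse, and the 3 low values come from the same mouse in genes that vary together, so the 5 gaps are not independent. The share of all genes with such a gap among these strains was not computed. The 5 of 30 are therefore not shown to be particular to these genes.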

How the results depend on the processing

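No paired analysis was possible because the labels number no replicates. No called log2 change of a single gene changed sign in any alternative run. Of 2% iron against 50 ppm, 5 genes in place of 8 were called with limma on log2(TPM + 1), on log2(TPM + 0.1) and without both libraries that stood apart, all lower, and 5 to 9 with each library left out in turn. Of 2% iron against 500 ppm, 3 to 7 were called with 1 library left out. Of chow against 50 ppm, 1 gene in place of 2 was called in a fit of those groups only, 4 with DESeq2, 0 with either limma fit, and 0 to 3 with 1 library left out. Of 2% iron with cellulose against 2% iron, 2 genes were called with no filter, 4 with DESeq2 (1 of them higher), and 0 to 3 with 1 library left out. Of the strain families, 1 gene was called with at least 10 counts in every library, which left Sult5a1 untested. Against chow and with cellulose against 50 ppm, 9 to 12 genes were called with 1 library left out. The median log2 change of all genes moved to 0.10 and 0.11 on the log2(TPM + 1) scale and to 0.14 on the log2(TPM + 0.1) scale for those 2 comparisons. The cause of these differences was not tested. With 3 mice per diet, the 5 tested genes under 2 CPM on 2% iron had SEs of 0.55 to 0.72 on the log2 scale.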
